A study of Mus musculus with 12 samples.

Results

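Cytosolic heat shock proteins and their co-chaperones were followed in keratinocytes of mice, the cells that build the epidermis, kept in culture. The 10 genes were fixed by name: Hsf1, Hspa8, Hsph1, Dnajb1, Hsp90aa1, Hspb1, Hspb8, Cryab, Bag3 and Hspd1. Each gene was represented by its probe set with the highest mean signal, and 9 of the 10 had a probe set annotated to them alone, of 22180 genes measured in this way. Hsf1 was not analysed here. Hspd1 encodes a chaperonin of the mitochondrial matrix, so the word cytosolic does not describe it.

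All cells carried Atg7 alleles flanked by loxP sites (Atg7 f/f). Knockout cells (KO, autophagy deficient) also carried the K14::Cre transgene, which is driven by a keratin promoter of basal keratinocytes, and wild-type cells (wt, autophagy competent) did not. Cultures at the same confluence received paraquat at 20 µM or a sham treatment, and RNA was taken after 48 h. Paraquat is a redox-cycling herbicide that makes cells form superoxide. The 4 groups were KO paraquat, KO sham, wt paraquat and wt sham, with 3 arrays each. They were described as biological triplicates without being tied to animals, so p-values measure the spread between these cultures. In bulk RNA of this kind, a change in the share of cells that express a gene and a change in RNA per cell cannot be told apart.

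Median signals were 42 to 45 in the 12 arrays, whose small number limits how precise any value is. Atg7 gave 129, 148 and 96 in KO paraquat and 105, 111 and 103 in KO sham arrays, against 442, 442 and 457 in wt paraquat and 293, 356 and 286 in wt sham arrays. All KO arrays lay below all wt arrays, with Atg7 2.92-fold lower in KO than in wt sham cells (limma, adjusted p = 2.8e-05). Of 13 keratinocyte markers, 12 had group means above the highest array median in every group, among them Krt14 (8933 to 11102) and Dsp (7255 to 9295), while Krt15 was dim (21 to 41). On principal components of all genes, wt sham 2 stood apart on the second (-31.4, with its group mates at -11.4 and -20.4) and KO paraquat 3 on the third (19.7, with its group mates at 5.52 and 6.34). Calls that are lost without these arrays are given with their values without them.

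Heat shock proteins are chaperones: they bind unfolded or partly folded proteins and keep them from aggregating. HSP70 proteins work with J-domain partners, which deliver clients, and with exchange factors, which release them, and HSP90 completes the folding of many signalling proteins. Small heat shock proteins hold clients without using ATP. HSF1 is the transcription factor that raises many of these genes when misfolded proteins build up, by binding inverted repeats of the bases GAA in their promoters. BAG3 links HSP70 and HSPB8 to a chaperone-assisted form of autophagy, and small heat shock proteins, HSPB1 among them, are abundant in differentiating epidermis.

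HSF1 acts through this element, so the copies found before the starts of these genes are shown. RefSeq promoter sequences (GRCm38.p6) were matched for 6 of the 10 genes, as 9 start sites: Hspd1, Hspb8, Hspb1, Hsph1, Bag3 and Dnajb1. The 250 bases before each start were searched on both strands for the units GAANNTTC and TTCNNGAA, and for the longer runs GAANNTTCNNGAA and TTCNNGAANNTTC, which contain both of them. In the windows below the units are in capitals, 5′ to 3′ on the strand of the gene.
Hspd1 (minus strand, chr1:55088053-55088082): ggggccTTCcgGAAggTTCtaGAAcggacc
Hspb1 (plus strand, chr5:135887801-135887830): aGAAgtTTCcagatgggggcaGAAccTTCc
Hsph1 (minus strand, chr5:149636351-149636380): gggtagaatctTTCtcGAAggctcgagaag

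The Hspd1 window begins 150 bases before one of its 2 start sites and holds both long runs, which overlap. Hspb1 had 2 separate copies of GAANNTTC in a window that begins 118 bases before its start. Hsph1 had 1 copy of TTCNNGAA, which lies before both of its start sites. The windows of Hspb8, Bag3 and Dnajb1 held none of these letters. At least 1 short unit stood in 4 of the 9 windows, of which 2 overlap and hold the same Hsph1 copy. A long run stood in 1. The shares were 12.8% and 0.466% of all 32851 promoter windows, and 18.2% and 3.41% of 88 windows of further chaperone genes. A match of letters describes the sequence and does not show that a factor is bound.

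**Figure D1:**
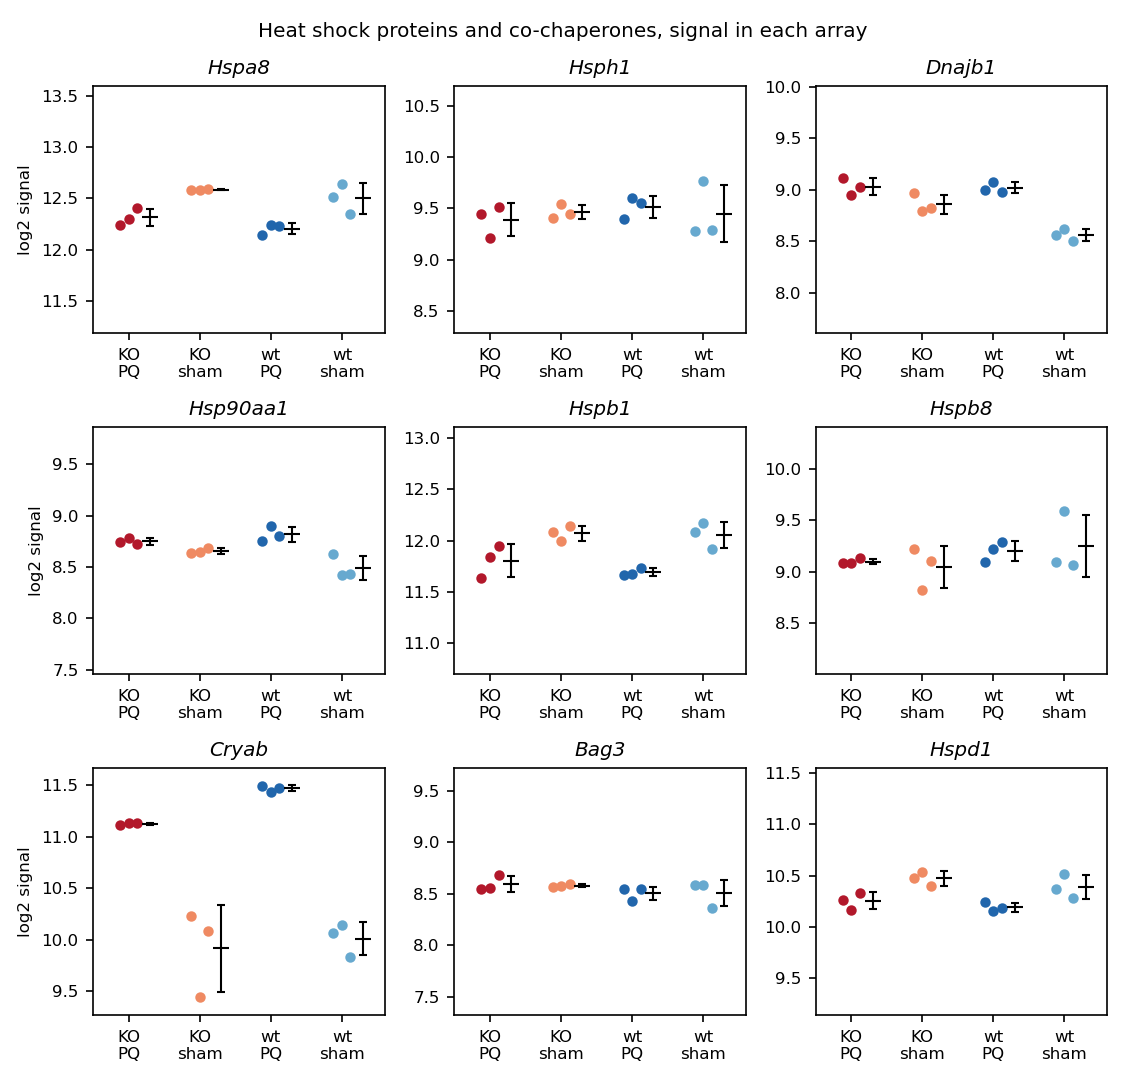
Signal of the 9 measured genes (y axis, log2 signal; every panel spans the same 2.4 log2 units) in KO paraquat (PQ), KO sham, wt paraquat and wt sham arrays. Points are arrays and black bars are the mean and SD of 3 arrays. Cryab parts paraquat from sham in both genotypes, while for Bag3, Hsph1 and Hspb8 paraquat and sham arrays overlap in both.

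The first question was how these genes respond to paraquat in each genotype. Cryab was the only one of the 9 whose group means spanned more than 1 log2 unit (1.55). In wt cells Cryab, Dnajb1 and Hsp90aa1 rose and Hspa8 and Hspb1 fell, so that 5 of 9 passed the test (adjusted p under 0.05), where 29.2% of all genes did (14.9% higher, 14.3% lower). In KO cells Cryab rose and Hspa8 fell, so that 2 of 9 passed, where 27.1% of all genes did (14.5% higher, 12.6% lower). All 9 genes were brighter than the array medians, while those shares include dim genes. With dim genes (above the array median in fewer than 3 arrays) left out before the test, 6586 of 13054 genes passed in wt and 6186 in KO. In that setting the same 5 of the 9 passed in wt, and 4 passed in KO. The median change of the 9 genes was 0.02 in KO and -0.001 in wt on the log2 scale, against 0.01 in each for all genes. The called genes moved in both directions, with a large change in Cryab alone.

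Cryab encodes alpha-B crystallin, a small heat shock protein also abundant in lens and muscle. Its signals were 2217, 2248 and 2245 in KO paraquat arrays, against 1204, 695 and 1084 in KO sham arrays. In wt cells they were 2895, 2778 and 2848 in paraquat arrays, against 1071, 1131 and 911 in sham arrays. Every paraquat array lay above every sham array, and KO sham 2 was the lowest of the 12. Cryab rose 2.31-fold in KO (log2 1.21, standard error 0.16, with 3 arrays in each group, limma adjusted p = 7.03e-05) and 2.75-fold in wt (log2 1.46 ± 0.16, adjusted p = 1.04e-05); errors of log2 changes are standard errors throughout. It passed under all 22 alternatives in both genotypes, with changes of 0.97 to 1.37 in KO and 1.37 to 1.75 in wt. In the whole table, 354 genes rose by more in KO and 319 rose by more in wt.

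Under paraquat the Cryab arrays of the genotypes did not overlap. The mean was 2237 ± 17.1 (SD, n = 3) in KO paraquat and 2840 ± 58.9 in wt paraquat. The log2 difference was -0.34 ± 0.16 (95% confidence interval -0.69 to -0.001). It did not pass the test across all genes (adjusted p = 0.45, unadjusted p = 0.0492). The difference between the responses, KO minus wt, was -0.25 ± 0.22 (adjusted p = 0.667).

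A second probe set of Cryab alone was dimmer and gave larger changes. It read 586, 603 and 595 in KO paraquat and 263, 170 and 250 in KO sham arrays, against 1001, 890 and 882 in wt paraquat and 226, 275 and 184 in wt sham arrays. Its rise was 1.41 ± 0.17 in KO and 2.03 ± 0.17 in wt on the log2 scale (adjusted p over all probe sets 0.000209 and 1.1e-05). It was lower in KO paraquat than in wt paraquat by a log2 difference of -0.63 ± 0.17, which missed the threshold (adjusted p = 0.258). Both probe sets thus rose under paraquat in both genotypes, and both had KO paraquat arrays below wt paraquat arrays. Another probe set, shared with the neighbouring gene Hspb2, read 47 to 78 in all arrays and cannot be assigned to either gene. It changed by -0.10 in KO and 0.47 in wt (adjusted p over all probe sets 0.677 and 0.0203), so it did not rise in KO.

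**Figure D2:**
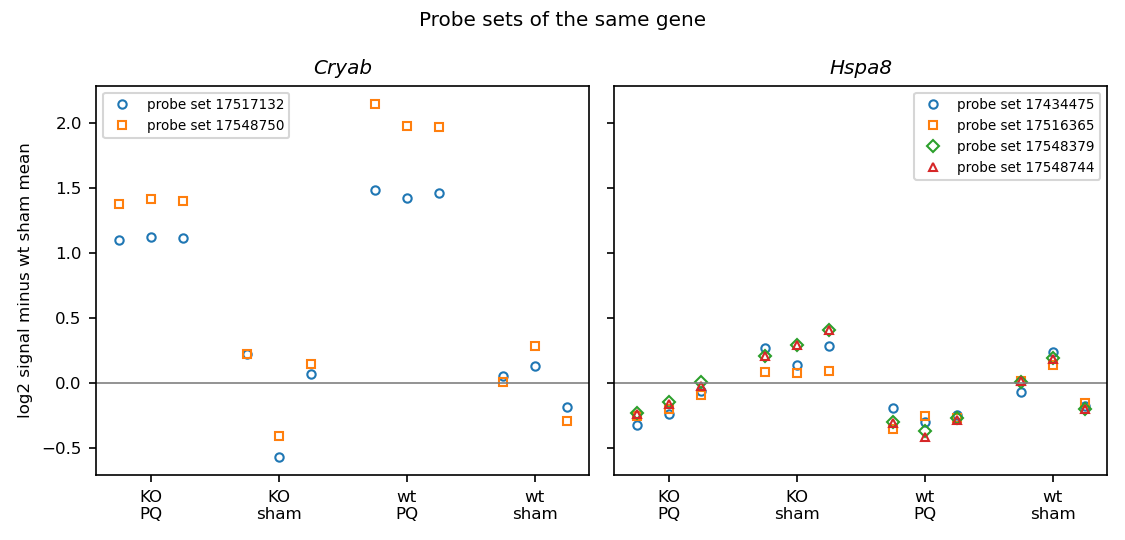
Log2 signal of the probe sets annotated to Cryab alone (left) and to Hspa8 alone (right), minus each probe set's wt sham mean, in KO paraquat (PQ), KO sham, wt paraquat and wt sham arrays; each symbol is 1 array. Both Cryab probe sets are high in paraquat arrays, the second of them by more, and the 4 Hspa8 probe sets are lower in paraquat than in sham cells of the same genotype on average.

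Several marker lists of other cell types were higher in sum under paraquat, as Cryab was, and the keratinocyte list was lower in sum. The 13 keratinocyte markers summed to 37904 to 40740 in KO paraquat and 41305 to 44036 in KO sham arrays. In wt they summed to 39182 to 39876 in paraquat and 43050 to 46234 in sham arrays. Among them 1 rose and 5 fell in KO, and 1 rose and 6 fell in wt. Over all genes 14.5% rose and 12.6% fell in KO, and 14.9% and 14.3% in wt. The keratinocyte marker that rose was Ivl (219 to 1907 over all arrays), by log2 2.325 in KO and 2.727 in wt, the largest rise in that list. The summed signal of 8 melanocyte markers was 921 to 966 in KO paraquat and 481 to 532 in KO sham arrays, against 930 to 1013 in wt paraquat and 427 to 505 in wt sham arrays. For 7 endothelial markers it was 351 to 397 and 243 to 259 in KO paraquat and KO sham arrays, and 424 to 503 and 219 to 248 in wt paraquat and wt sham arrays. For 7 leukocyte and Langerhans markers it was 1382 to 1654 and 748 to 841 in KO, and 1965 to 2056 and 731 to 784 in wt, in the same order. Most of that last sum was Cd68 (559 to 1870), while Ptprc, which defines leukocytes, read 13 to 21. Mlana (53 to 398) had the widest range of the melanocyte markers and Kdr (45 to 295) of the endothelial ones, while Tyr read 7 to 12 and Emcn 12 to 14. Of the lists, 4 of 8 melanocyte, 2 of 7 endothelial and 2 of 7 leukocyte markers rose in KO (1 leukocyte marker fell), and 4, 3 and 2 in wt. The 10 fibroblast markers summed to 555 to 580 in KO paraquat, 465 to 517 in KO sham, 551 to 639 in wt paraquat and 465 to 542 in wt sham arrays. Of these 10, 1 rose in KO and 2 rose in wt. Pdgfra (26 to 117) and Vim (133 to 225) had the widest ranges of the fibroblast markers, while Lum read 8 to 12. Whether such cells were present, and their part in the rise of Cryab, was not tested. The 9 markers of skeletal and cardiac muscle, where Cryab is abundant, summed to 643 to 713 in KO paraquat and 655 to 720 in KO sham arrays, and to 663 to 705 in wt paraquat and 671 to 719 in wt sham arrays. Of these 9, 5 had group means above the highest array median in every group, among them Tnnt2 (228 to 305) and Acta1 (102 to 209), while Des, the muscle intermediate filament gene, read 19 to 32. In KO 0 rose and 1 fell, and in wt 2 rose and 1 fell.

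The genes whose profile over the 12 arrays was most like that of Cryab were Dhrs1, a short-chain dehydrogenase, Lrrc28, and Klk8, a kallikrein protease of the epidermis. Likeness was the root mean square difference between log2 profiles after each had its own mean subtracted, over 10341 named genes brighter than the median gene, and it was 0.13, 0.15 and 0.15 log2 units. Mean signals of Dhrs1 were 976 in KO paraquat, 462 in KO sham, 1203 in wt paraquat and 478 in wt sham cells. Klk8 averaged 1083 and 520 in KO paraquat and KO sham cells, against 1729 and 592 in wt paraquat and wt sham cells. All 12 arrays enter both sides of each such comparison, so shared array effects are part of the likeness.

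Dnajb1 encodes the J-domain protein that most often partners HSP70 in the stress response. Its signals were 554, 494 and 522 in KO paraquat arrays, against 499, 444 and 452 in KO sham arrays. In wt cells they were 510, 540 and 505 in paraquat arrays, against 378, 393 and 362 in sham arrays. The wt sham arrays were the 3 lowest of the 12, and the KO groups overlapped. Dnajb1 rose 1.37-fold in wt (log2 0.46 ± 0.08, adjusted p = 0.000598), a call that held under all 22 alternatives. In KO the change was 0.17 ± 0.08 (adjusted p = 0.143). The difference between the responses, KO minus wt, was -0.29 ± 0.11 (95% confidence interval -0.53 to -0.04), with adjusted p = 0.236 and unadjusted p = 0.0254, so a difference between genotypes was not established.

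Sham cells of the 2 genotypes were compared next, and Dnajb1 was the 1 gene of 9 that passed, where 10.2% of all genes did (4.58% higher, 5.67% lower). It was 1.23-fold higher in KO sham than in wt sham cells (log2 0.30 ± 0.08, adjusted p = 0.0311). The call was lost when KO sham 1 (adjusted p = 0.106), KO sham 3 (0.055), wt sham 1 (0.0602) or wt sham 3 (0.106) was left out. It was also lost without both arrays that stand apart (adjusted p = 0.0609), and with only the 6 sham arrays in the fit (0.102). Hsp90aa1 also had its KO sham arrays all above its wt sham arrays, with a log2 difference of 0.16 ± 0.08 (adjusted p = 0.258). Such separation upward was seen in 2 of the 9 genes and in 10.1% of all genes, and downward in 0 of 9 and in 12.6%. The other 7 genes overlapped, and their differences were -0.20 to 0.09 on the log2 scale.

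Under paraquat, 0 of the 9 genes differed between KO and wt cells in limma's test, where 0.550% of all genes did (0.0992% higher, 0.451% lower), and 1 (Cryab) had an unadjusted p under 0.05. Hspa8 and Bag3 had all KO paraquat arrays above all wt paraquat arrays, as had 7.94% of all genes, and Cryab had them all below, as had 9.07%. The nearest KO and wt arrays were almost equal for Hspa8 (4853 and 4850) and Bag3 (374 and 373). Apart from Cryab, the log2 differences were -0.12 to 0.11. The responses to paraquat differed in 0 of 9 genes, where 2.29% of all genes passed (1.39% higher, 0.897% lower), and in 1 (Dnajb1) at an unadjusted p under 0.05. The differences of the responses, KO minus wt, were -0.29 to 0.10. The 95% confidence intervals of these differences reached from -0.74 (Cryab) to 0.52 (Hspb8).

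Hsp90aa1 encodes the stress-inducible HSP90. Its signals were 427, 441 and 422 in KO paraquat arrays, against 397, 401 and 412 in KO sham arrays. In wt cells they were 430, 477 and 447 in paraquat arrays, against 396, 343 and 345 in sham arrays. Paraquat arrays lay above sham arrays in both genotypes, by a narrow margin in KO. The gene rose 1.25-fold in wt (log2 0.32 ± 0.08, adjusted p = 0.00728) under all 22 alternatives too. The KO change was 0.09 ± 0.08 (adjusted p = 0.466), and the difference between the responses was -0.23 ± 0.11 (adjusted p = 0.362). Wt sham 2 and 3 were the lowest of the 12 arrays.

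Hspa8 encodes HSC70, the HSP70 that cells make without stress and that also carries proteins to the lysosome in chaperone-mediated autophagy. Its signals were 4853, 5051 and 5425 in KO paraquat arrays, against 6153, 6122 and 6187 in KO sham arrays. In wt cells they were 4530, 4850 and 4801 in paraquat arrays, against 5844, 6389 and 5209 in sham arrays. The sham arrays lay above the paraquat arrays in each genotype. Hspa8 was 1.21-fold lower under paraquat in KO (log2 -0.27 ± 0.09, adjusted p = 0.033) and 1.23-fold lower in wt (log2 -0.29 ± 0.09, adjusted p = 0.0194).

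Both calls for Hspa8 depended on single arrays. In wt the adjusted p was 0.0685 without both arrays that stand apart, 0.0746 without wt sham 2, 0.0514 without wt sham 1 and 0.0724 without wt paraquat 1. In KO it was 0.117 without KO paraquat 1, 0.087 without KO paraquat 2, and 0.0669, 0.069 and 0.0761 without KO sham 1, 2 and 3. The 3 other probe sets of Hspa8 alone changed by -0.44 to -0.43 in KO and by -0.34 to -0.25 in wt. Tested among all probe sets, these 3 passed in KO (adjusted p 0.0134 to 0.0179), while in wt 1 of them passed (0.0498) and the others had 0.0668 and 0.17. In that test the probe set used above passed in wt (0.0338) and missed in KO (0.0512). Among the 3, 2 had nearly the same signal in each array (1932 and 1921 in KO paraquat 1), so they are not separate evidence. A probe set shared with Snord14e changed by -0.15 in KO and -0.17 in wt and passed in neither. Near-identical copies of this gene in the genome may share probes, and signal from them could not be told apart.

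Hspb1, the small heat shock protein HSP27 (HSP25 in mice), binds unfolded clients and actin filaments and is abundant in suprabasal epidermis. Its signals were 3179, 3657 and 3949 in KO paraquat arrays, against 4334, 4085 and 4518 in KO sham arrays. In wt cells they were 3243, 3279 and 3407 in paraquat arrays, against 4329, 4619 and 3883 in sham arrays. Groups did not overlap in either genotype. Hspb1 fell 1.29-fold in wt (log2 -0.37 ± 0.10, adjusted p = 0.00987), and its KO change was -0.27 ± 0.10 (adjusted p = 0.055). Without KO paraquat 3, the highest of its group, the KO change was -0.34 (adjusted p = 0.0287), and it passed under 7 of 22 alternatives. A second, much dimmer probe set (91 to 138) changed by -0.30 ± 0.13 in KO and -0.16 ± 0.13 in wt, and averaging the 2 probe sets gave -0.26 in wt (adjusted p = 0.076).

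Hspd1, the mitochondrial chaperonin HSP60, had signals of 1231, 1151 and 1289 in KO paraquat arrays, against 1426, 1487 and 1351 in KO sham arrays. In wt cells they were 1210, 1137 and 1161 in paraquat arrays, against 1319, 1458 and 1243 in sham arrays. Paraquat arrays were below sham arrays in both genotypes, but neither change passed (log2 -0.22 ± 0.08 in KO, adjusted p = 0.0753, and -0.19 ± 0.08 in wt, adjusted p = 0.108). Without wt sham 2 and KO paraquat 3 the KO change was -0.25 and passed (adjusted p = 0.0465), as it did under 5 of 22 alternatives. Over the 9 genes, 2 had their KO paraquat arrays all above and 3 all below their KO sham arrays, where 20.0% and 17.3% of all genes did. In wt the counts were 3 and 3, where 19.2% and 18.3% of all genes did.

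Bag3, Hspb8 and Hsph1 gave no call in any comparison. Bag3 encodes the exchange factor that joins HSP70 to small heat shock proteins, and its signals were 374, 376 and 412 in KO paraquat and 380, 381 and 387 in KO sham arrays, against 373, 346 and 373 in wt paraquat and 383, 384 and 328 in wt sham arrays. Its paraquat change was 0.02 ± 0.08 in KO (95% confidence interval -0.16 to 0.20) and -0.001 ± 0.08 in wt (-0.18 to 0.18). Hspb8, the small heat shock protein that partners BAG3, read 543, 541 and 559 in KO paraquat and 596, 451 and 549 in KO sham arrays, against 546, 596 and 625 in wt paraquat and 545, 772 and 535 in wt sham arrays. Wt sham 2 was the highest array and KO sham 2 the lowest, both inside sham groups, and the changes were 0.05 ± 0.14 in KO and -0.05 ± 0.14 in wt. Hsph1, an HSP110 exchange factor for HSP70, read 698, 593 and 732 in KO paraquat and 680, 746 and 696 in KO sham arrays, against 673, 775 and 751 in wt paraquat and 624, 872 and 627 in wt sham arrays. Wt sham 2 was again the highest, and the changes were -0.07 ± 0.13 in KO and 0.07 ± 0.13 in wt. For Hsph1 without wt sham 2 the wt change was 0.23.

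**Figure D3:**
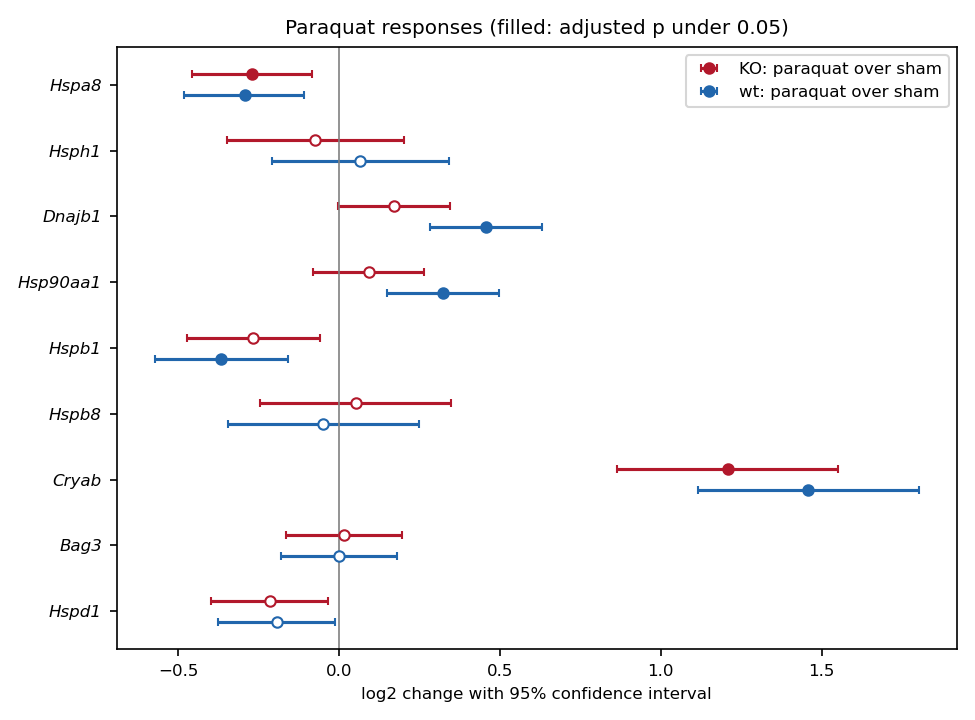
Log2 change under paraquat for the 9 genes (x axis), KO above wt for each gene, with 95% confidence intervals from the fit. Filled points passed an adjusted p of 0.05: Cryab and Hspa8 in KO, and Cryab, Dnajb1, Hsp90aa1, Hspa8 and Hspb1 in wt.

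A wider list of chaperones and co-chaperones, grouped by role, was described around these genes. It held 84 genes, of which 78 were measured, and the others were not analysed here. Under paraquat 13 rose and 12 fell in KO, and 20 rose and 17 fell in wt, which is 25 of 78 (32.1%) in KO and 37 of 78 (47.4%) in wt, where 27.1% and 29.2% of all genes passed. With dim genes left out before the test, 6186 of 13054 genes of the series passed in KO and 6586 in wt. An excess of calls in the list over genes of like brightness was therefore not shown. The median change of the list was 0.06 in KO and -0.009 in wt on the log2 scale, against 0.01 in each for all genes. Like the 9 genes above, the list was split between rises and falls in both genotypes. Without wt sham 2 and KO paraquat 3, and under the other alternatives, 19 to 31 genes passed in KO and 26 to 40 in wt.

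Of the 4 heat shock factors and binding proteins, 1 rose and 1 fell in KO, and 2 rose and 1 fell in wt. The shares over all genes were 14.5% and 12.6% in KO, and 14.9% and 14.3% in wt. Hsf2, a factor that pairs with HSF1, read 136, 142 and 189 in KO paraquat arrays, against 296, 326 and 292 in KO sham arrays, and 114, 149 and 119 in wt paraquat arrays, against 238, 203 and 191 in wt sham arrays. It fell by 0.98 in KO and by 0.73 in wt on the log2 scale (adjusted p = 0.000121 and 0.00106), and no paraquat array reached a sham array of its genotype. Hsbp1, which binds HSF1 and restrains it, rose by log2 0.57 in KO and 0.61 in wt. Hsf4 rose by 0.35 in wt, with a KO change of 0.23 that did not pass (adjusted p = 0.0648), and Hsf5 passed in neither genotype. In sham cells Hsf2 was higher in KO than in wt by log2 0.54 (adjusted p = 0.0254), and that call was lost without any 1 of KO sham 1, 2 or 3 or wt sham 2 or 3, with adjusted p of up to 0.1.

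Of 14 J-domain proteins 5 rose and 0 fell in KO (7 changed at an unadjusted p under 0.05 in limma), where 14.5% of all genes rose, and 7 rose and 3 fell in wt, where 14.9% rose. Dnaja4 rose by log2 0.94 in KO and 0.69 in wt, Dnajc6, the uncoating partner of clathrin vesicles, by 0.63 and 0.67, and Dnajb4 by 0.52 and 0.81. The rise of Dnajc6 started from signals of 36 to 47 in KO sham and 36 to 41 in wt sham arrays, around the array medians. Dnajb5 rose by 0.45 in KO and 0.38 in wt. Dnajb14, which sits in the membrane of the endoplasmic reticulum, fell by 0.71 and Dnajc2, a partner at the ribosome, by 0.61 in wt. Among the 9 genes of the HSP70 and HSP110 group, Hspa4l, a testis-rich HSP110, fell by 0.94 in KO and 0.45 in wt, and Hspa2 fell by 0.43 and 0.47. Hspa4l was higher in KO sham than in wt sham cells by log2 0.60 (adjusted p = 0.00321).

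The stress-inducible HSP70 genes Hspa1a and Hspa1b gave different results in the probe sets assigned to each. Hspa1a read 960, 766 and 853 in KO paraquat arrays, against 667, 770 and 661 in KO sham arrays, and 1144, 930 and 966 in wt paraquat arrays, against 569, 903 and 538 in wt sham arrays. It rose by log2 0.63 in wt (adjusted p = 0.0113), with a change of 0.30 in KO that did not pass. The wt call was lost without wt paraquat 1, wt sham 1 or wt sham 3 (adjusted p of up to 0.0601). Without wt sham 2, whose 903 was the highest sham value, the wt rise was 0.87. Hspa1b fell by 0.57 in KO (adjusted p = 0.0154), a call lost without KO paraquat 1, KO paraquat 2 or KO sham 2 (adjusted p of up to 0.0726), and its wt change was -0.23. The 2 genes are nearly identical in sequence, and another probe set, annotated to both, changed by 0.02 in KO and 0.48 in wt, so the assignment of signal between them is uncertain.

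Among the remaining small heat shock proteins, Hspb6 fell by 0.50 in KO and 0.71 in wt, and Cryaa, the lens partner of Cryab, rose by 0.66 in wt from signals of 32 to 47 in sham arrays, around the array medians. Of 16 HSP90 and HSP70 co-chaperones 2 rose and 3 fell in KO, and 2 rose and 4 fell in wt. For this count and those of the groups that follow, 14.5% of all genes rose and 12.6% fell in KO. In wt 14.9% of all genes rose and 14.3% fell. Ahsa2 fell by 0.68 in KO and 0.76 in wt, Fkbp4, an immunophilin of steroid receptors, fell by 0.37 in KO and 0.67 in wt, and Ahsa1, an activator of the HSP90 ATPase, fell by 0.44 in KO and 0.30 in wt. The Ahsa1 call in wt was lost without wt sham 2 (-0.23, adjusted p = 0.0792), and that of Fkbp4 in KO under 5 of 22 alternatives. Unc45a, a myosin chaperone, rose by 0.69 in KO and 0.47 in wt, and the phosphatase gene Ppp5c rose by 0.45 and 0.41. Of 6 BAG and exchange factor genes 3 rose and 1 fell in KO, and 2 rose and 1 fell in wt, with Bag2 at -0.42 in each, Hspbp1 at 0.41 in KO and 0.33 in wt, Bag1 at 0.31 and 0.32, and Bag5 at 0.31 in KO. Of these, Bag5 was lost under 11 of 22 alternatives, Bag1 under 7 in KO and 6 in wt, and Hspbp1 under 7 in wt. Without KO paraquat 3 the KO changes were 0.22 for Bag5 (adjusted p = 0.168) and 0.24 for Bag1 (0.131). In the TRiC and prefoldin group 0 of 13 rose and 1 fell in KO (2 of 13 at an unadjusted p under 0.05 in limma), namely Cct5 (-0.27), which was lost under 7 of 22 alternatives, among them without KO paraquat 3 (adjusted p = 0.0522). In wt 2 of 13 rose and 2 fell, namely Cct8 (0.40), Pfdn6 (-0.41), Cct3 (0.23) and Vbp1 (-0.35). Cct8 passed under all 22 alternatives, while Pfdn6 was lost under 8, Cct3 under 10 and Vbp1 under 13. Without wt sham 2, Pfdn6 was at -0.23 (adjusted p = 0.125), Cct3 at 0.24 (0.0636) and Vbp1 at -0.24 (0.184).

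**Figure D4:**
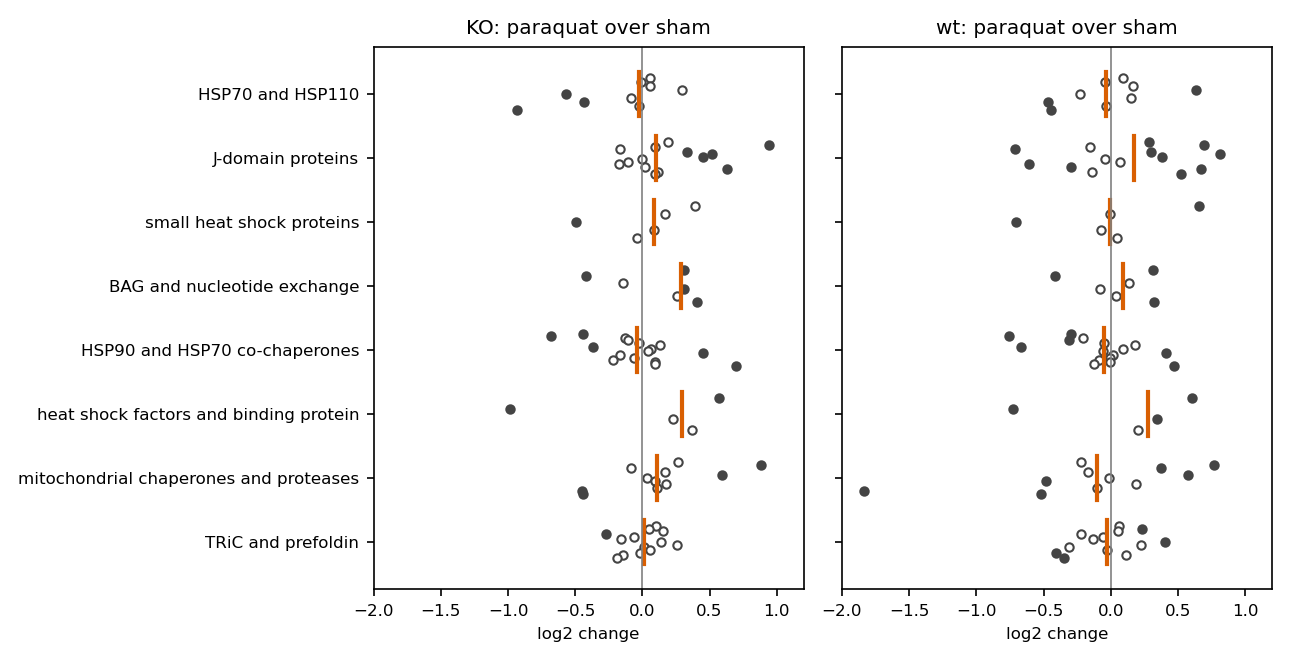
Log2 change under paraquat (x axis) of 78 further chaperone genes by role in KO (left) and wt (right); each point is 1 gene, filled where the adjusted p was under 0.05, and orange bars are group medians. Rises and falls stand side by side in most groups, and the lowest point in wt is Lonp1 at -1.84.

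Mitochondrial chaperones and proteases, which share the organelle of Hspd1, held the largest change of the 78 genes in wt, while in KO the largest was that of Hsf2. Hspe1, the co-chaperonin of Hspd1, did not pass, with changes of 0.17 in KO and 0.19 in wt. Lonp1, the main matrix protease, read 248, 281 and 282 in KO paraquat arrays, against 351, 372 and 383 in KO sham arrays, and 246, 242 and 260 in wt paraquat arrays, against 747, 1052 and 895 in wt sham arrays. Its wt sham arrays were higher than all 9 others. It fell by 0.45 in KO and fell by 1.84 in wt on the log2 scale (adjusted p = 0.0079 and 5.73e-08), and the KO sham level was below the wt sham level by log2 -1.27 (adjusted p = 2.8e-05). Hspa9, the matrix HSP70, read 3653 to 3796 in KO paraquat, 3380 to 3582 in KO sham, 3597 to 3683 in wt paraquat and 4784 to 5209 in wt sham arrays. It too was highest in wt sham cells, and it fell by 0.48 in wt. Its KO arrays were higher under paraquat than in sham cells, a change that did not pass the test. Trap1, the mitochondrial HSP90, fell by 0.45 in KO and 0.52 in wt, while the protease gene Clpp rose by 0.89 and 0.77, and Grpel1, the exchange factor of Hspa9, by 0.60 and 0.57. Of the 11 genes 2 rose and 2 fell in KO, where 14.5% and 12.6% of all genes did. In wt 3 rose and 3 fell, where 14.9% and 14.3% of all genes did. In sham cells 0 were higher and 5 lower in KO than in wt, where 4.58% and 5.67% of all genes were. Among these 5 were Htra2 (-0.42) and Clpb (-0.41). The call for Clpb was lost under 14 of 22 alternatives, and that for Dnaja3, another of the 5, under 15. Without wt sham 2 their adjusted p was 0.163 and 0.105.

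In sham cells 7 of the 78 wider genes were higher and 9 lower in KO than in wt, or 16 in all (20.5%), and 6 to 19 under the alternatives, where 10.2% of all genes passed (4.58% higher, 5.67% lower). With dim genes left out before the test, 2774 of 13054 genes of the series passed. Tcp1 and Cct8, subunits of the TRiC chaperonin, were higher by log2 0.36 and 0.31. Tcp1 was lost under 3 of 22 alternatives, among them without both arrays that stand apart (adjusted p = 0.0553), and Cct8 under 4. Ptges3, the HSP90 co-chaperone p23, was higher by 0.37, a call lost under 10 of 22 alternatives, and Chordc1 by 0.34, lost under 14. Of the J-domain genes Dnajc9 was higher by 0.56, while Dnajb12 (-0.31), Dnajb14 (-0.27) and Dnaja4 (-0.39) were lower, as was Bag6 (-0.37). Dnajc9 passed under all 22 alternatives, while Dnajb12 was lost under 6, Dnajb14 under 10, Dnaja4 under 8 and Bag6 under 4. Without wt sham 2 the adjusted p was 0.07 for Dnajb12, 0.133 for Dnaja4, 0.0686 for Bag6, 0.0549 for Ptges3 and 0.118 for Chordc1, and without both arrays that stand apart it was 0.0503 for Dnajb14. None of the 5 small heat shock proteins passed (1 at an unadjusted p under 0.05 in limma), and the lowest p-values were those of Cryaa (0.35) and Hspb6 (-0.19). Under paraquat 0 of the 78 differed between KO and wt in limma's test (8 at an unadjusted p under 0.05), where 0.550% of all genes did. Their differences were -0.24 to 0.29. The lowest p-values in their groups were those of Dnajb14 (0.27) and Dnajc2 (0.22), Ahsa2 (0.28) and Chordc1 (0.29), Clpx (-0.22) and Htra2 (-0.21), Bag5 (0.24) and Bag6 (-0.15), Hspa1a (-0.24) and Hspa4l (0.11). In the remaining groups they were those of Hsf2 (0.28) and Hsf4 (-0.15), Hspb9 (-0.19) and Hspb7 (0.18), and Cct5 (0.13) and Tcp1 (0.10). The responses differed between genotypes in 4 of 78 genes (5.13%), where 2.29% of all genes passed, and 894 of 13054 with dim genes left out. The difference, KO response minus wt response, was positive for 3 (Lonp1, Hspa9, Dnajb14) and negative for 1 (Clpx). In the groups without a call, the lowest p-values were those of Bag5 (0.40) and Bag6 (0.22), Hspa4l (-0.49) and Hspa1l (-0.24), Ttc4 (0.22) and Fkbp4 (0.30), Cct8 (-0.26) and Tcp1 (-0.26), Hsf2 (-0.25) and Hsf4 (-0.12), and Hspb6 (0.21) and Hspb3 (0.17).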

How the data were processed

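RNA from 12 keratinocyte cultures was hybridised to Affymetrix arrays. The authors deposited 1 RMA intensity per probe set. The submitters' processing notes name Affymetrix Expression Console 1.3.1.187 as the software. The values are whole numbers with nearly equal medians, so they were read as linear RMA signals and their log2 was taken. For the genome build behind the probe sets and for any filter, no source used here gives details. Of 41345 probe sets, 23521 had 1 gene symbol, 1814 several and 16010 none in GEO's platform annotation, which can be old. Gene identifiers of 23328 matched the RefSeq gene table (GRCm38.p6), which changed 0 symbols. The brightest probe set stood for each of 22180 genes, with no filter on signal. Shares given over all genes therefore include dim genes.

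One mean per group was fitted to all 12 arrays by lmFit and eBayes of limma 3.58.1 (R 4.3.3), without a block for the replicate number. The 5 comparisons were 2-sided, with Benjamini-Hochberg adjustment over all genes. The method was tested on simulated arrays. Alternatives changed the value added before the log2, normalization, centring, the filter on dim genes, probe set choice, variance model, arrays fitted and replicate block, and left out each array. The 10 genes, the wider lists and the tests were chosen with earlier results of these data known. Named were all 10 genes, up to 4 called genes per wider group and comparison (the 2 of lowest p where none passed), and the 3 genes most like any member spanning at least 1 log2 unit. Same-numbered arrays did not deviate together (12 pairs, r -0.07 to 0.09), so numbers were not taken as pairs.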

Additional observations from a re-analysis of the deposited data

Results flagged for a closer look

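In 4 of the 78 wider chaperone genes (5.13%) the paraquat responses differed between genotypes in the test of the difference itself, KO response minus wt response. That test was passed by 2.29% of all genes, and by 894 of 13054 genes with dim genes left out. For Lonp1 the difference was 1.39 (adjusted p = 0.000658), with changes of -0.45 in KO and -1.84 in wt. For Hspa9 it was 0.57 (adjusted p = 0.0112), with mean signals of 3705 in KO paraquat and 3471 in KO sham against 3633 in wt paraquat and 5066 in wt sham cells. Both passed under all 21 alternatives. For Dnajb14 it was 0.55 (adjusted p = 0.0171), with mean signals of 120 and 135 in KO paraquat and KO sham against 99.7 and 163 in wt paraquat and wt sham cells. It was lost without KO paraquat 2 and with the mean over probe sets. For Clpx, which unfolds substrates for the Clpp protease, it was -0.46 (adjusted p = 0.0431), with mean signals of 386 and 409 in KO paraquat and KO sham against 450 and 347 in wt paraquat and wt sham cells. It was lost under 16 of 21 alternatives (adjusted p of up to 0.134), among them leaving out any 1 of the 12 arrays.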

How the results depend on the processing

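Groups of 3 arrays limit what can be shown for changes of this size. Genes passing among the 9 in KO paraquat against KO sham numbered 4 with 16 added before the log2, with dim genes left out, with a variance trend, or without wt sham 2 and KO paraquat 3, against 2 in the reported fit. They numbered 1 with centring on the array median or with every probe set tested, a setting added after seeing the data. In KO sham against wt sham 0 passed with centring, with only the arrays compared, without the 2 arrays, or over every probe set, against 1 as reported. Leaving out each array in turn gave 1 to 3 for KO paraquat against sham, 4 to 5 for wt paraquat against sham (5 as reported, and 4 with the mean over probe sets, only the arrays compared or without the 2 arrays), 0 to 1 for KO against wt in sham cells, and 0 for the other comparisons. With the replicate number as a replicate block the counts stayed at 2, 5, 1, 0 and 0. Over all genes, testing every probe set gave 53 calls for KO against wt under paraquat and 297 for the difference of responses, against 122 and 508 as reported.

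The following signs turned, in changes that passed neither as reported nor under these settings. For wt paraquat against sham, Bag3 was 0.010 after centring, 0.006 after a second quantile normalization and 0.038 without the 2 arrays, where Hspb8 was 0.123. In KO, Bag3 was -0.029 without the 2 arrays. In sham cells, after centring, Hsph1 was -0.005 and Hspb1 -0.008. For KO minus wt response, Hspd1 was 0.022 after centring, Hspa8 was -0.099 and Hspb1 -0.021 with the mean over probe sets, and Hspa8 was -0.090, Hspb1 -0.028, Hspb8 -0.087 and Bag3 -0.067 without the 2 arrays. Leaving out single arrays gave, in wt, Hspb8 -0.141 to 0.123, Bag3 -0.076 to 0.038 and Hsph1 -0.015 to 0.226. In KO it gave Hsph1 -0.136 to 0.016, Bag3 -0.029 to 0.041 and Hspb8 -0.063 to 0.138. In sham cells it gave Hsph1 -0.065 to 0.176, Cryab -0.252 to 0.145, Hspb1 -0.054 to 0.072 and Bag3 -0.003 to 0.111, and under paraquat Dnajb1 -0.029 to 0.054. For the difference of responses it gave Hspd1 -0.085 to 0.030, Hspa8 -0.046 to 0.101, Bag3 -0.028 to 0.092 and Hspb8 -0.072 to 0.193. The cause was not tested.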
